A study of Mus musculus with 36 samples.

Results

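Chemokine ligand genes encode small secreted or membrane-tethered proteins that attract leukocytes. The 37 genes described here are the protein-coding autosomal genes of the GENCODE annotation of mm10 whose symbol is Ccl or Cxcl followed by a number, or is Xcl1 or Cx3cl1, out of 20807 protein-coding autosomal genes. Pf4 and Ppbp, which lie among the CXC genes but carry other symbols, are outside the rule. The marks compared were K4me3 and K27me3, measured by ChIP-Seq in whole pancreas of 12 mice, 3 of each of 4 genotypes. All mice were 2 to 4 months old, received tamoxifen by gavage and were taken 22 days later. WT mice were labelled wild type, and the methods of the study describe its controls as C57BL/6 mice or mice carrying Mist1creERT alone. EZ mice carried Mist1creERT/+ and were homozygous for an Ezh2 allele whose SET domain is floxed. KR mice carried Mist1creERT/+ without that Ezh2 allele, and KE mice carried Mist1creERT/+ with it, and both groups also carried a further Cre-dependent allele that WT and EZ mice lacked. KE and KR thus differ by the Ezh2 allele. EZ and WT differ by it and, where a WT mouse lacked Mist1creERT, by that allele too. Mist1creERT limits recombination to acinar cells, so every other cell type of the pancreas kept unrecombined alleles. The peak lists do not show whether the Ezh2 deletion took place in a given mouse.

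Chemokines are grouped by the spacing of their first cysteines into CC, CXC, XC and CX3C types, and they act through G protein-coupled receptors on leukocytes, endothelium and epithelium. Many are silent until NF-kB or interferon signalling induces them, as in an inflamed pancreas, while a few are produced steadily. K4me3 marks the starts of active or inducible genes. K27me3, written by EZH2 or EZH1 in the Polycomb repressive complex, marks broad stretches of repressed chromatin and can lie over whole gene clusters.

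The starts of these genes differ in CpG content, which is known to go with both K4me3 and Polycomb binding. RefSeq promoter windows (GRCm38.p6, 250 bases before to 50 after the start) matched 26 of the 37 genes by symbol and position. Those of Ccl2, Ccl4, Ccl5, Ccl7, Ccl11, Ccl21b, Ccl24, Ccl26, Cxcl5, Cxcl16 and Cxcl17 are not shown. The number of CpG dinucleotides per window had a median of 5.5 over the 26 genes, against 7.0 over all 32851 windows. It ranged from 10 to 52 in the 6 matched genes with K4me3 in 11 or 12 mice, with a median of 15. In the 8 matched genes with neither mark in any mouse it ranged from 3 to 10, with a median of 3.5. The 5 matched genes with K27me3 in at least 6 mice had 22 (Cxcl14), 11 (Cxcl2), 7 (Ccl1) and 2 each (Ccl8 and Ccl12). The Ccl1 window is at a start away from its K27me3 peaks, which lay by its other start. CpG-rich windows thus occurred among both K4me3 and K27me3 genes. The windows printed here, with CpG in capitals, are those of the genes that the results turn on. Cxcl12 carried K4me3 in every mouse and Cxcl14 only K27me3, with nearly equal CpG counts of 20 and 22 (chr6:117168285-117168584, plus strand, and chr13:56296502-56296801, minus strand).
Cxcl12: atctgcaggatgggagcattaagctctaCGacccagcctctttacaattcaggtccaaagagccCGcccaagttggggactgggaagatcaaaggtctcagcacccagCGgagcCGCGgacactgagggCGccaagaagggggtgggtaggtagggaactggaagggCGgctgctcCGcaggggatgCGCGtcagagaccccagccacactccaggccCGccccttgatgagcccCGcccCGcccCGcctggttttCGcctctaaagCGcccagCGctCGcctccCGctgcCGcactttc
Cxcl14: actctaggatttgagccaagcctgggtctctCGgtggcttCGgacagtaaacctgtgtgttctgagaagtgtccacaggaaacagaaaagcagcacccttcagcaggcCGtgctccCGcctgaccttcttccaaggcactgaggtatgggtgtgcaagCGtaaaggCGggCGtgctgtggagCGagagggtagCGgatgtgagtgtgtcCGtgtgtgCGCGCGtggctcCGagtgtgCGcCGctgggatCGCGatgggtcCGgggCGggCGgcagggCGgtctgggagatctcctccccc
Cxcl1 and Cxcl2 are neighbours with like starts and 10 and 11 CpG, one with K4me3 and the other with K27me3 (chr5:90890995-90891294 and chr5:90903649-90903948, both on the plus strand).
Cxcl1: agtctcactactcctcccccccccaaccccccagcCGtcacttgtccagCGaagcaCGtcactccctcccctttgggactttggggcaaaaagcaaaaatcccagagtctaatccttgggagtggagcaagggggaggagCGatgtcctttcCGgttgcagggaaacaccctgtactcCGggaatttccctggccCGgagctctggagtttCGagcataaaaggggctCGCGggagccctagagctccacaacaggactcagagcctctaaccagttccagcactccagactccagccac
Cxcl2: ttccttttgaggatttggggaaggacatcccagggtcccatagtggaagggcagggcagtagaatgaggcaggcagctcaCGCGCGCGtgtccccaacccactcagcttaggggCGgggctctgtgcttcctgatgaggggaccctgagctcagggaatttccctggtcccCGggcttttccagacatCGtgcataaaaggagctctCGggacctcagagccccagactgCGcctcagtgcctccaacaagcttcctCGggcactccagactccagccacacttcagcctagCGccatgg
Cxcl10 and Cxcl9 are neighbours with 10 and 4 CpG, one with K4me3 in every mouse and the other with K27me3 in some (chr5:92348840-92349139 and chr5:92328030-92328329, both on the minus strand).
Cxcl10: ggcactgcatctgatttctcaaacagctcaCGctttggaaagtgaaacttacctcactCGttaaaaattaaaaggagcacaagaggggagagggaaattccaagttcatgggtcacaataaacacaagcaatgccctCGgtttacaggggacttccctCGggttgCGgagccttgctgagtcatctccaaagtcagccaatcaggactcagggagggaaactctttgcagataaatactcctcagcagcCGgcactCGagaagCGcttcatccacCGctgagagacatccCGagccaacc
Cxcl9: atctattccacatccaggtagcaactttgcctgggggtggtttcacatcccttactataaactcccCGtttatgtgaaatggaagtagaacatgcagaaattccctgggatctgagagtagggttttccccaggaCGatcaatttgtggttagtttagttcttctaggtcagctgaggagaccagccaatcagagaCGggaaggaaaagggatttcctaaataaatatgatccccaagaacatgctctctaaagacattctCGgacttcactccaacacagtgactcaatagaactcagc
Ccl8, with 2 CpG, is a CpG-poor start within the broad K27me3 stretch of chromosome 11 (chr11:82114935-82115234, plus strand).
Ccl8: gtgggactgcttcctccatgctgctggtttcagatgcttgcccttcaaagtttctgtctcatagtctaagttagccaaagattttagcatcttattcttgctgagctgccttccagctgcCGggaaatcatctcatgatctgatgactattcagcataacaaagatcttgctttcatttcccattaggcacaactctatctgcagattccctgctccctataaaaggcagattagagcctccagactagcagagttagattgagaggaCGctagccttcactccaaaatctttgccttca
The letters GGAANTTCC, of the NF-kB type, were found on either strand in the windows of Cxcl1, Cxcl2, Cxcl3, Cxcl10, Ccl1 and Ccl12, which is 23.1% of the 26, against 0.928% of all windows. TATAAA was found in 30.8% of the 26 against 13.6% of all, and TTTCNNTTT, of the interferon response type, in 15.4% against 10.6%. Matches of different letters could overlap. These are matches of letters only and do not show binding.

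The K4me3 lists held 16912 to 25433 autosomal peaks and the K27me3 lists 15782 to 29041, with no read counts or heights, so the depth of each library is unknown. WT replicate 2 stood apart, with the fewest peaks of each mark, and 11.7% of its K27me3 peaks overlapped a K4me3 peak, against 0.693% to 4.39% in the other mice. K4me3 was present at 10 of 10 acinar marker genes in every mouse. Of 10 leukocyte markers it was present at 6 in WT replicate 2 and KR replicate 1, Cd3e and Cd79a among them, and at 1 or 2 in the other mice. In whole pancreas a peak cannot be assigned to a cell type, so a change within cells and a change in the number of cells of a type cannot be told apart.

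Few chemokine genes had K4me3 and a larger share than of all genes had K27me3. A peak overlapping the 3 kb before or after any annotated start of a gene counted as a call for that gene in that mouse. K4me3 was called at 7 of the 37 genes in 11 mice and at 6 in WT replicate 2, or 16.2% to 18.9%, against 61.8% to 64.8% of all genes. K27me3 was called at 3, 12 and 6 genes in the WT mice, 9, 7 and 12 in the EZ mice, 12, 11 and 9 in the KR mice and 12, 11 and 10 in the KE mice. These counts were 18.9% to 32.4% of the 37 genes outside the WT mice, against 10.3% to 16.1% of all genes in the same mice. The share of chemokine genes was 0.898 to 2.61 times the share of all genes, and WT replicate 1 was the only mouse below 1. Neighbouring genes can be called by the same peak, as Ccl2, Ccl7 and Ccl11 were in EZ replicate 3. These calls, and the counts over all mice below, are therefore not independent. In EZ replicate 1 only Cxcl2, Ccl9 and Cxcl14 were called outside the chromosome 11 run from Ccl2 to Ccl1. The share without that run was not calculated.

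**Figure D1:**
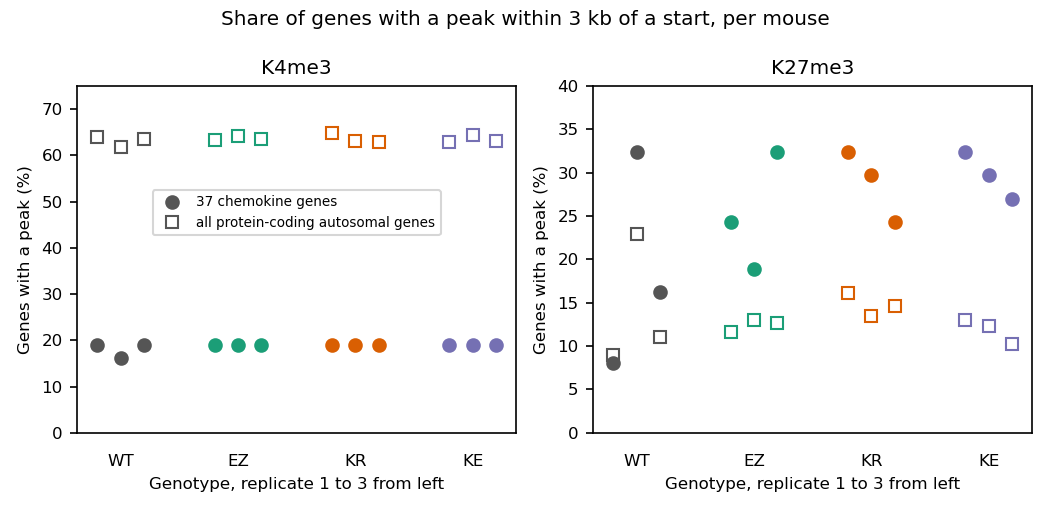
The vertical axis gives the percent of genes with a peak within 3 kb of a start, for K4me3 (left) and K27me3 (right), with 3 mice per genotype in the order of their replicate numbers. Filled circles are the 37 chemokine genes and open squares all 20807 genes. Circles lie below the squares for K4me3 in every mouse, and above them for K27me3 in every mouse but WT replicate 1.

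Over all mice, 30 chemokine genes (81.1%) never had K4me3, against 31.9% of all genes. K27me3 was called in at least 6 mice at 9 genes (24.3%), against 12.4% of all genes, in 1 to 5 mice at 11 (29.7%, against 20.9%), and in no mouse at 17 (45.9%, against 66.7%). No chemokine gene had K27me3 in all 12 mice, which 3.28% of all genes had. Neither mark was called in any mouse at 13 genes (35.1%), against 15.4% of all genes. Both marks at one gene in one mouse were called at 0.0% to 5.41% of the 37 genes per mouse, against 1.59% to 11.7% of all genes. They occurred at Cxcl12 and Cx3cl1 in WT replicate 2 and at Cxcl1 in KR replicate 1 and KE replicate 1, and in no other mouse.

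**Figure D2:**
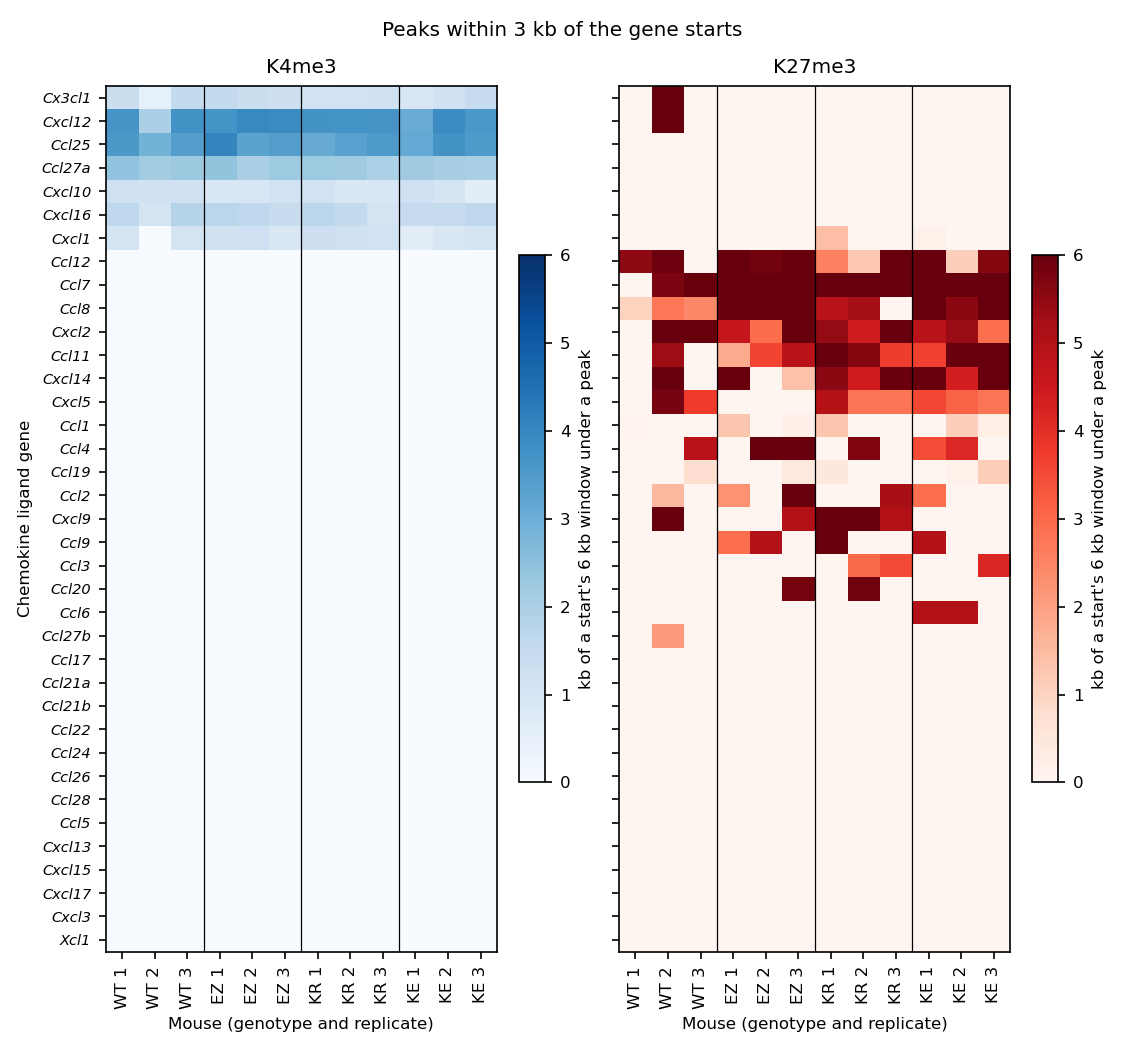
Each row is a gene and each column a mouse, and the shade gives the kb under a peak in the 3 kb on either side of a start, taking the start with the most. K4me3 (left) fills the same 7 rows in every mouse but WT replicate 2, and K27me3 (right) varies from mouse to mouse within a genotype.

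The 7 genes with K4me3 were the stromal ligand Cxcl12, 2 of 7 epithelial ligands, both membrane-bound ligands and 1 ligand each of CXCR2 and CXCR3. Cxcl12 (chr6:117168535-117181367, plus strand), the CXCR4 ligand that retains stem cells and lymphocytes in their niches, had the largest median peak width of these 7, 3701 bp. It was 3643, 2003 and 3729 bp wide in the WT mice, 3703, 3957 and 3903 bp in the EZ mice, 3708, 3699 and 3672 bp in the KR mice and 3067, 3868 and 3603 bp in the KE mice. The Ccl25 peak (chr8:4325210-4360020, plus strand; a gut-homing ligand of CCR9) was 3563, 2863 and 3419 bp wide in WT, 4008, 3300 and 3437 bp in EZ, 3093, 3336 and 3550 bp in KR and 3125, 3705 and 3518 bp in KE. In all 12 mice it also lay over a start of Elavl1, so the mark cannot be assigned to 1 of these genes. The Ccl27a peak (chr4:41769467-41774247, minus strand; a CCR10 ligand of epithelium) was 2433, 2135 and 2271 bp wide in WT, 2402, 2030 and 2241 bp in EZ, 2246, 2211 and 1977 bp in KR and 2217, 2049 and 2035 bp in KE. These Ccl27a widths overlapped between all genotypes. Cxcl16 (chr11:70453983-70459984, minus strand), a membrane-bound ligand of CXCR6, had peaks of 1609, 1065 and 1802 bp in WT, 1732, 1617 and 1436 bp in EZ, 1714, 1526 and 1074 bp in KR and 1464, 1476 and 1646 bp in KE, which also lay over a start of Zmynd15 in all 12 mice. Cx3cl1 (chr8:94772009-94782427, plus strand), the membrane-bound fractalkine, had peaks of 1347, 501 and 1532 bp in WT, 1535, 1319 and 1289 bp in EZ, 1112, 1143 and 1192 bp in KR and 910, 1196 and 1470 bp in KE. WT replicate 2 had the narrowest peak at Cxcl12, Ccl25, Cxcl16 and Cx3cl1. Ccl27a and Ccl27b lie in a duplicated stretch of chromosome 4, as do Ccl21a and Ccl21b, and how reads shared by such copies were placed is not given in the sources used here.

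The other 2 genes with K4me3 are inducible. Cxcl10 (chr5:92346638-92348889, minus strand), an interferon-induced CXCR3 ligand that draws T cells and NK cells, had K4me3 peaks of 1238, 1180 and 1185 bp in the WT mice, 912, 951 and 1164 bp in the EZ mice, 1160, 907 and 919 bp in the KR mice and 1246, 1032 and 627 bp in the KE mice. The 3 WT mice lay above every EZ and every KR mouse, the KE mice overlapped all 3 other genotypes, and these widths were not tested. Cxcl1 (chr5:90891241-90893115, plus strand), a neutrophil chemoattractant acting on CXCR2, had peaks of 1055, 0 and 1039 bp in the WT mice, 1195, 1231 and 913 bp in the EZ mice, 1286, 1181 and 1164 bp in the KR mice and 666, 909 and 1065 bp in the KE mice. The 3 KR mice lay above every WT and every KE mouse, and the EZ mice overlapped all 3 other genotypes.

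The genes grouped here as CCR2 ligands, Ccl2, Ccl7, Ccl12 and Ccl8, lie with the eosinophil attractant Ccl11 and Ccl1 in a block of 290.1 kb on chromosome 11 (chr11:82025571-82315690). There K27me3 was widespread and K4me3 was absent in all 12 mice. A block is a run of at least 3 chemokine genes of chromosome 5 or 11 at most 300 kb apart, with 10 kb added at each end. Runs on other chromosomes, such as Ccl22, Cx3cl1 and Ccl17 on chromosome 8, were not treated as blocks. K27me3 peaks covered 30.2%, 51.0% and 35.2% of this block in the WT mice, 52.2%, 48.3% and 66.4% in the EZ mice, 44.9%, 49.0% and 53.6% in the KR mice and 54.6%, 58.2% and 59.1% in the KE mice. In comparison, K27me3 covered 5.53% to 9.16% of the autosomes. The widest deposited peak in the block spanned 11758 bp in WT replicate 1 and 49984 bp in EZ replicate 3, and with overlapping peaks joined the longest stretch was 16.3 kb and 80.1 kb in these mice. All 3 mice shared 49.4 kb in WT, 116.0 kb in EZ, 95.7 kb in KR and 114.0 kb in KE. Of the block, 103.0 kb were covered in at least 9 mice.

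**Figure D3:**
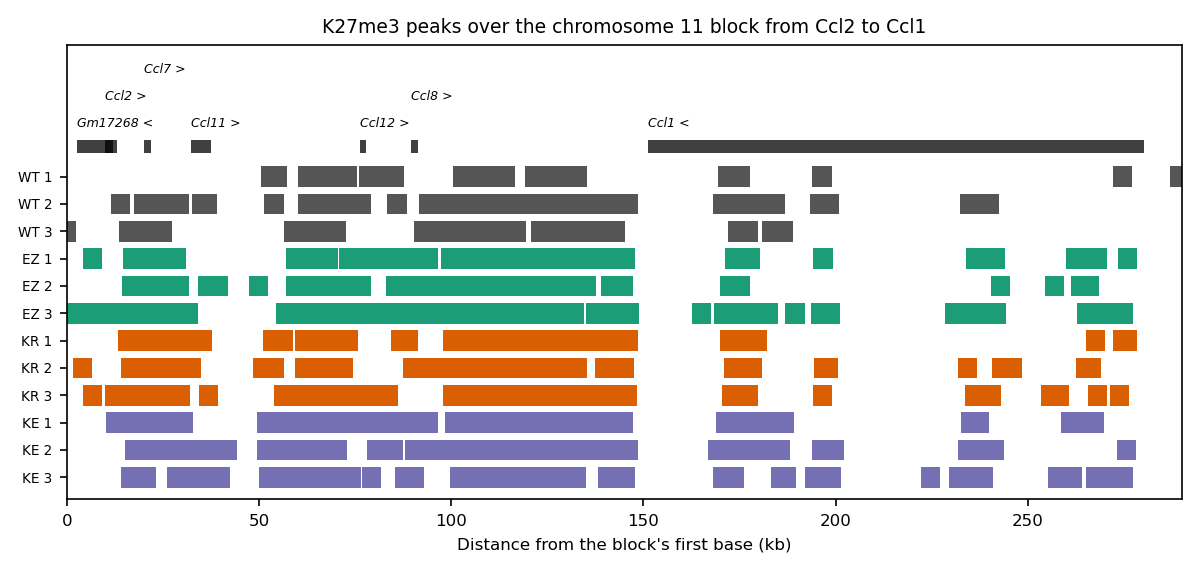
K27me3 peaks (bars, overlapping peaks joined) in each of the 12 mice over the block from Ccl2 to Ccl1, with distance from its first base in kb on the horizontal axis. Genes are drawn above in black, and < or > gives the strand. The stretch between Ccl11 and Ccl1 is the most filled in every genotype, and WT replicate 1 has no peak over Ccl2, Ccl7 and Ccl11.

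Within the block the genes differed. At Ccl7 (chr11:82045712-82047525) K27me3 covered 0, 5757 and 6001 bp of the window of 6001 bp in the WT mice and the whole window in all 9 other mice. At Ccl8 (chr11:82115185-82116799) it covered 1028, 2753 and 2434 bp in the WT mice, 6001 bp in each EZ mouse, 4853, 5223 and 0 bp in the KR mice and 6001, 5573 and 6001 bp in the KE mice. The 3 EZ and the 3 KE mice thus lay above every WT mouse at Ccl8, while KR replicate 3 had no peak there. At Ccl12 (chr11:82101845-82103400) it covered 5506, 5926 and 0 bp in WT, 6001, 5845 and 6001 bp in EZ, 2555, 1280 and 6001 bp in KR and 6001, 1112 and 5631 bp in KE. At Ccl11 (chr11:82057823-82062955) it covered 0, 5324 and 0 bp in WT, 1804, 3574 and 4849 bp in EZ, 6001, 5648 and 3726 bp in KR and 3637, 6001 and 6001 bp in KE. Ccl11 was called in all 9 EZ, KR and KE mice and, among the WT mice, in replicate 2 alone. Ccl2 itself, the main monocyte attractant, was called in 5 mice, and in no genotype in all 3, with 0, 1532 and 0 bp covered in WT, 2232, 0 and 6001 bp in EZ, 0, 0 and 5200 bp in KR and 2924, 0 and 0 bp in KE. Ccl1 (chr11:82176657-82305690), a CCR8 ligand with a start far from the others, was called in 6 mice through at most 1309 bp at the edge of a window, with 78, 0 and 0 bp in WT, 1309, 0 and 196 bp in EZ, 1291, 0 and 0 bp in KR and 0, 1120 and 239 bp in KE.

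The CXCR2 ligands, which attract neutrophils, form a block of 166.6 kb on chromosome 5 (chr5:90749360-90915938) with Cxcl5, Cxcl3, Cxcl15, Cxcl1 and Cxcl2. The Cxcl1 peak was the block's only K4me3 peak in 11 mice, and WT replicate 2 had none. K27me3 lay mainly at its ends, on Cxcl5 and Cxcl2, in the KR and KE mice and WT replicates 2 and 3. In EZ replicates 1 to 3 it lay on Cxcl2 and between Cxcl15 and Cxcl1. These middle peaks lay at 74.3 to 79.3, 93.5 to 98.5 and 94.8 to 99.8 kb from the block's first base. WT replicate 1 had only the edge of a peak at the block's first base. K27me3 covered 0.845%, 14.9% and 8.11% of the block in the WT mice and 7.57%, 8.20% and 9.97% in the EZ mice. It covered 16.5%, 12% and 11.5% in the KR mice and 9.01%, 8.48% and 11.6% in the KE mice. At Cxcl2 (chr5:90903871-90905938) K27me3 covered 0, 6001 and 6001 bp in WT, 4626, 2932 and 6001 bp in EZ, 5431, 4388 and 6001 bp in KR and 4895, 5387 and 2905 bp in KE. It was called in 11 mice, and WT replicate 1 was the exception. At Cxcl5 (chr5:90759360-90761624) K27me3 covered 0, 5796 and 3771 bp in WT, nothing in the 3 EZ mice, 4915, 2789 and 2809 bp in KR and 3543, 3102 and 2812 bp in KE. Cxcl5 was thus called in every KR and KE mouse and in no EZ mouse, with the WT mice divided. With the same number of widest peaks kept in each library it was called in 2 KR mice, 1 KE mouse, 2 WT mice and no EZ mouse. Cxcl3 and Cxcl15 had neither mark in any mouse. Pf4 and Ppbp, platelet chemokine genes next to Cxcl5, had no K4me3 and had K27me3 in 1 and 3 mice.

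A second block on chromosome 11, of 158.9 kb, holds CC ligands of monocytes and T cells (chr11:83515778-83674683), namely Ccl5, Ccl9, Ccl6, Ccl3 and Ccl4. K27me3 covered 0.0%, 8.40% and 4.78% of it in WT, 8.96%, 7.99% and 18.1% in EZ, 8.04%, 11.1% and 13.1% in KR and 18.5%, 15.8% and 11.5% in KE. Its peaks were scattered. No base was covered in all 3 mice of WT, EZ or KR, and 3.48 kb were in KE. Ccl4 (chr11:83662584-83664683) had the most calls, with 0, 0 and 4840 bp covered in WT, 0, 6001 and 6001 bp in EZ, 0, 5713 and 0 bp in KR and 3487, 4138 and 0 bp in KE. Ccl9 was called in 4 mice, with 2927 and 5001 bp in EZ replicates 1 and 2, 6001 bp in KR replicate 1 and 5001 bp in KE replicate 1. Ccl3 was called in 3, with 3023 and 3499 bp in KR replicates 2 and 3 and 4176 bp in KE replicate 3. Ccl6 was called in KE replicates 1 and 2 alone, with 5001 bp in each. Ccl5 (chr11:83525778-83530518), the T cell and monocyte attractant RANTES, had neither mark by the rule. In 11 mice a K4me3 peak, the only one in the block, lay upstream of it, at a median of 3.72 kb from its start over all 12 mice and as near as 3.60 kb.

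**Figure D4:**
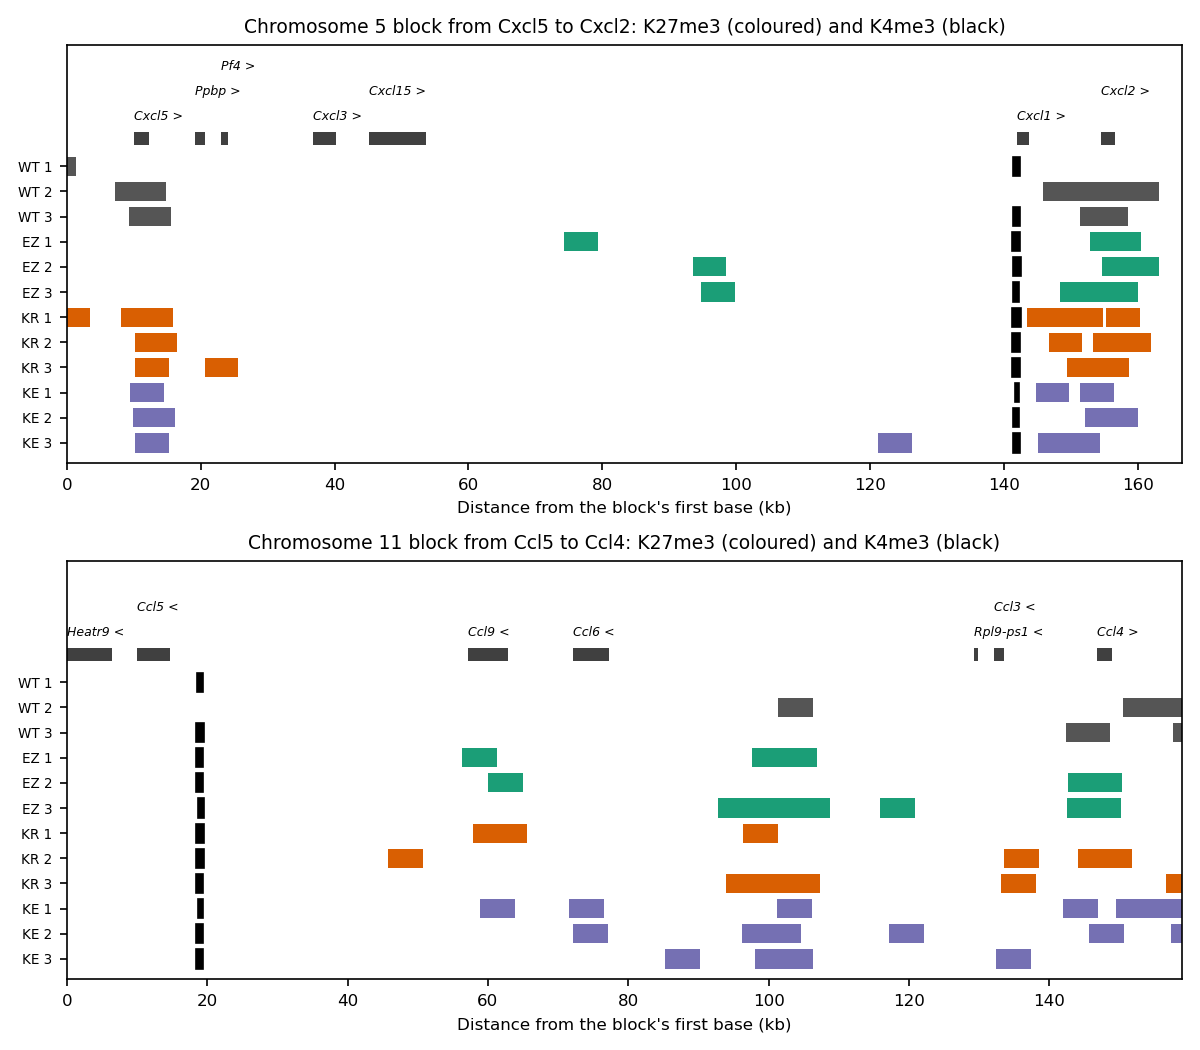
Peaks, overlapping ones joined, in each of the 12 mice over the Cxcl5 to Cxcl2 block (top) and the Ccl5 to Ccl4 block (bottom), K27me3 in colour and K4me3 in black, with distance from the first base in kb on the horizontal axis. The single K4me3 peaks at Cxcl1 and upstream of Ccl5 recur in 11 mice. K27me3 recurs at Cxcl2, and at Cxcl5 outside the EZ mice, whose other peaks lie between Cxcl15 and Cxcl1.

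Cxcl9 (chr5:92321347-92328079, minus strand), an interferon-gamma-induced CXCR3 ligand next to Cxcl10, had the only chemokine start with K27me3 in all 3 KR mice and in no KE mouse. Its window was covered over 0, 6001 and 0 bp in WT, 0, 0 and 5001 bp in EZ, 6001, 6001 and 5001 bp in KR and nothing in KE. The peaks were 9566, 6675 and 5001 bp wide in KR, 11490 bp in WT replicate 2 and 5001 bp in EZ replicate 3, and each covered the start. The narrowest width in the K27me3 lists is 5001 bp, so the KR replicate 3 and EZ replicate 3 peaks were of minimal size. When each library was limited to the same number of widest peaks, Cxcl9 was called in 2 of 3 KR mice, 1 WT mouse and no EZ or KE mouse. Cxcl10 had no K27me3 within its window in any mouse.

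Among the ligands outside the blocks, only Cxcl14 had K27me3 in at least 6 mice. Cxcl14 (chr13:56288643-56296551, minus strand), an epithelial chemokine, was covered over 0, 6001 and 0 bp in WT, 6001, 0 and 1361 bp in EZ, 5560, 4421 and 5944 bp in KR and 6001, 4353 and 6001 bp in KE. All 6 KR and KE mice were called, and WT and EZ mice were divided. Ccl19, a CCR7 ligand of lymphoid tissue, was called in 5 mice, through at most 1132 bp at the edge of a window. Ccl20 was called in 2 mice, and Ccl27b, Cxcl12 and Cx3cl1 in WT replicate 2 alone. The CCR4 ligands Ccl17 and Ccl22, the eotaxins Ccl24 and Ccl26, the lymphoid ligands Ccl21a, Ccl21b and Cxcl13, the epithelial ligands Ccl28 and Cxcl17, and Xcl1 had neither mark in any mouse.

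The first set of comparisons asked whether the marks over these genes differed by genotype. None of 18 comparisons reached an adjusted p below 0.05, and with 3 mice against 3 the smallest p of the exact two-sided permutation test is 0.1. Beside an unadjusted p of 0.1, the value after Benjamini-Hochberg adjustment over the 18 exact tests was 0.36. The number of chemokine genes with K27me3 was 9.33 ± 2.52 in EZ (SD, n = 3 mice) and 7.00 ± 4.58 in WT (SD, n = 3), with overlapping mice (exact permutation test, p = 0.5, adjusted 0.692). It was 10.67 ± 1.53 in KR (SD, n = 3), which also overlapped WT (exact permutation test, p = 0.4, adjusted 0.655), and 11 ± 1.00 in KE (SD, n = 3), which overlapped KR (exact permutation test, p = 1.0). As a ratio to the share of all genes in the same mouse, KR minus WT was 0.6954 and KE minus KR 0.5503. Both were without overlap (exact permutation test, p = 0.1, unadjusted). EZ minus WT was 0.7769 on that scale, with overlapping mice (exact permutation test, p = 0.2, unadjusted). The number with K4me3 was 7 in every EZ, KR and KE mouse.

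In 5 of the 18 comparisons every mouse of one genotype lay above every mouse of the other. The 2 chromosome 11 blocks together were covered by K27me3 over 187.7, 194.1 and 189.6 kb in the KE mice and 142.9, 159.7 and 176.3 kb in the KR mice, a difference of 30.84 kb (exact permutation test, p = 0.1, adjusted 0.36). It was 57.52 kb with the same number of widest peaks kept in each library. Over the whole span of the blocks it was 69.62 kb and the mice overlapped (exact permutation test, p = 0.2). Over all autosomes, K27me3 peaks covered 150.1, 186.7 and 136.3 Mb in KE and 177.6, 217.6 and 223.9 Mb in KR, with overlapping mice. Whether the block difference is related to this cover was not tested. With the Ccl2 to Ccl1 block ended 10 kb after Ccl8, which leaves out the long Ccl1 transcript, the difference was 15.52 kb and the mice overlapped (exact permutation test, p = 0.2). With the same ending EZ exceeded WT by 36.08 kb without overlap (exact permutation test, p = 0.1). Between Ccl2 and Ccl8 K27me3 covered 62.5% ± 4.02 of that shorter block in KR (SD, n = 3), 70.7% ± 4.44 in KE (SD, n = 3), 71.2% ± 8.01 in EZ (SD, n = 3) and 47.0% ± 15.1 in WT (SD, n = 3). The chromosome 11 blocks carried 179.9 ± 36.4 kb in EZ (SD, n = 3) and 119.5 ± 37.8 kb in WT (SD, n = 3), and the mice overlapped (exact permutation test, p = 0.2, adjusted 0.514), as did KR and WT (exact permutation test, p = 0.3, adjusted 0.54), where the difference of 40.08 kb fell to 13.4 kb with the same number of widest peaks. KE lay above WT without overlap, by 70.92 kb, a contrast that was not tested.

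**Figure D5:**
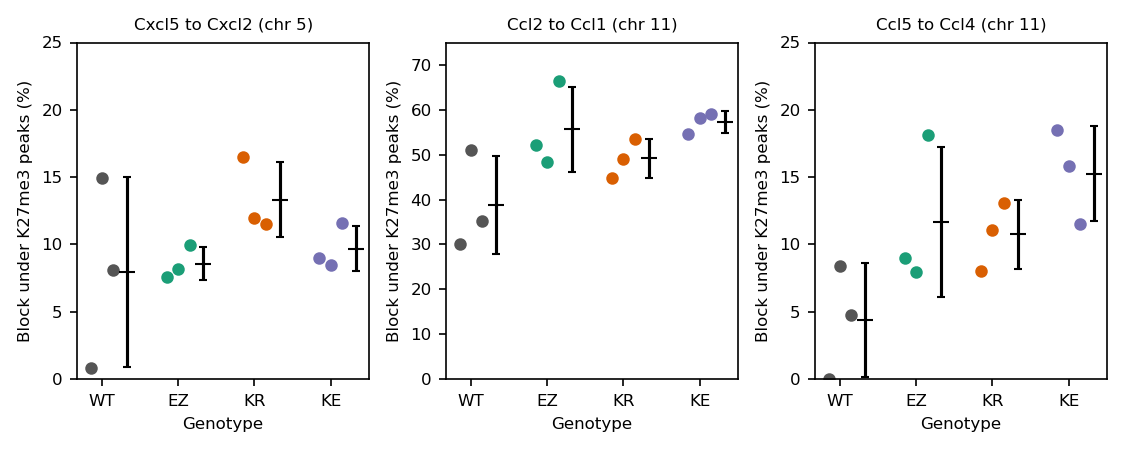
Percent of each block under K27me3 peaks, for each of 3 mice per genotype (points) with the mean and SD (bar and whiskers). The vertical scale of the Ccl2 to Ccl1 panel is larger, and there the KE mice, at 54.6% to 59.1%, lie above the KR mice, at 44.9% to 53.6%.

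The other 4 comparisons without overlap concerned the width of a single K4me3 peak each. On chromosome 5 this was the Cxcl1 peak, with 1.21 ± 0.0661 kb in KR (SD, n = 3), 0.698 ± 0.605 kb in WT (SD, n = 3) and 0.880 ± 0.201 kb in KE (SD, n = 3), and both differences from KR had p = 0.1 (exact permutation test, adjusted 0.36). On chromosome 11 it was the peak upstream of Ccl5, with 1.10 ± 0.1 kb in KR (SD, n = 3), 0.638 ± 0.555 kb in WT (SD, n = 3) and 0.862 ± 0.0906 kb in KE (SD, n = 3), again with p = 0.1 for both (exact permutation test, adjusted 0.36). WT replicate 2 had neither peak. Without it, KR exceeded WT by 0.1633 kb at the Cxcl1 peak and by 0.1398 kb at the other, in place of 0.5123 and 0.459 kb. With blocks extended by 50 kb the mice overlapped in 3 of these 4 comparisons, namely KR and WT on chromosome 5 (exact permutation test, p = 0.5) and on chromosome 11 (exact, p = 0.6), and KE and KR on chromosome 11, with -0.038 kb in place of -0.235 kb (exact, p = 0.9). With equal numbers of widest peaks KE minus KR was -0.8553 kb on chromosome 5 and -0.5377 kb on chromosome 11. The K27me3 cover of the chromosome 5 block was 22.2 ± 4.55 kb in KR (SD, n = 3) and 16.2 ± 2.81 kb in KE (SD, n = 3), with overlapping mice (exact permutation test, p = 0.2, adjusted 0.514). That difference of -6.013 kb was -1.854 kb without the 10 kb added at the ends (exact permutation test, p = 0.6) and -3.394 kb without KR replicate 1.

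A gene was also compared by presence in all 3 mice of one genotype and in none of the other. For K4me3 no chemokine gene met this in either direction between EZ and WT, KR and WT, KE and KR, KE and WT, or KE and EZ, where 0.111%, 0.0961%, 0.115%, 0.154% and 0.0384% of all genes did. For K27me3, none met it between EZ and WT (0.202% of all genes in EZ alone and 0.00481% in WT alone), between KR and WT (0.245% in KR alone and 0.00481% in WT alone) or between KE and WT (0.216% in KE alone and 0.0144% in WT alone). Cxcl9 was the only one with K27me3 in KR and not KE, as 0.322% of all genes were, and none had it in KE and not KR, as 0.101% of all genes did. Between KE and EZ, a contrast added after the values were seen, Cxcl5 had K27me3 in KE alone, as 0.0913% of all genes did, and none had it in EZ alone (0.120%). Both single calls end when the same number of widest peaks is kept in each library, with Cxcl9 in 2 of 3 KR mice and Cxcl5 in 1 of 3 KE mice. A single gene is 2.70% of the 37, and a count of 1 does not set these genes apart from all genes. Without WT replicate 2, and so against 2 WT mice, Cxcl9, Ccl11 and Cxcl14 had K27me3 in all KR mice and neither WT mouse (1.24% of all genes). Against the same 2 WT mice this held for Ccl11 and Cxcl14 in all KE mice (0.735%), and for Ccl11 in all EZ mice (0.663%). WT replicate 2 was the only WT mouse called at any of these genes, so leaving it out makes the pattern. Without WT replicate 1 instead, the count was 1 between EZ and WT, and 0 between KR and WT and between KE and WT.

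The receptors of these ligands, from a list of 23 of which 22 are autosomal, had K4me3 in all 12 mice at Cxcr4, Ackr3, Ccr9, Ccr10 and Ccrl2 (22.7% of the 22, against 58.2% of all genes) and in no mouse at 13 (59.1%, against 31.9%). Cxcr4 and Ackr3 are receptors of Cxcl12, Ccr9 of Ccl25 and Ccr10 of Ccl27a, all with K4me3. By contrast, Cxcr2 and Cxcr6, receptors of Cxcl1 and Cxcl16, had K4me3 in no mouse. The remaining 4 receptors (18.2%, against 9.9% of all genes) had it in 1 to 11 mice. Cx3cr1, the receptor of Cx3cl1, had K4me3 in 2 WT, 3 EZ, 0 KR and 3 KE mice. Of all genes, 0.0625% had it in all KE mice and no KR mouse. Ccr6, Ccr7 and Cxcr5 each had it in 1 WT and 1 KR mouse alone. K27me3 was called in all 12 mice at Ccr1, Ccr2 and Ccr3, neighbouring genes of leukocyte receptors (13.6%, against 3.28% of all genes). In WT replicate 1, of the genes grouped here as CCR2 ligands, Ccl12 and Ccl8 were called and Ccl2 and Ccl7 were not. Neither mark was found at 8 receptors in any mouse (36.4%, against 15.4% of all genes).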

How the data were processed

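ChIP-Seq peak lists of K4me3 and K27me3 from whole pancreas were analysed for 12 mice. The 12 input samples were not used here. A further allele of the KR and KE mice and some genes are not reported here. The authors checked reads with FastQC, aligned them to mm10 with bowtie2 and called peaks per mouse against its input with HOMER findPeaks in histone mode. The deposited columns are peak positions, and a deposited score that is 1 for every peak and was not used. Read counts are not given, so depth and counting error are unknown. Genes and starts came from GENCODE vM21, on the same build, and a peak overlapping 3 kb on either side of a start by at least 1 bp called a gene. Exact two-sided permutation tests compared genotypes over mice, with Benjamini-Hochberg adjustment over 18 tests. Replicates are separate mice. Same-numbered mice deviated together in 1 case, K4me3 in KE and KR (correlations 0.48, 0.27 and 0.28). There, with the replicate number as a block, KE minus KR in the K4me3 cover of the chromosome 5 and 11 blocks was -0.3303 and -0.235 kb (exact sign-flip test, p = 0.25 for both, the smallest for 3 pairs).

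All genes enter the counts. Values per mouse are given for genes called in all 3 mice of one genotype and none of another, with K4me3 in all 12 mice, with K27me3 in at least 6, or within a block. The genes, lists and tests were chosen with earlier results of these data known. Alternatives were other windows, peak merging, block limits, equal numbers of widest peaks, values relative to the genome, medians, a replicate block and each mouse left out. Ending a block after Ccl8, the KE and EZ contrast and the named counts without WT replicate 2 were added after seeing the data. Gene calling was tested on simulated peaks. Python 3.11.15, numpy 2.4.6, pandas 2.3.3 and matplotlib 3.10.9 were used.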

Additional observations from a re-analysis of the deposited data

Results flagged for a closer look

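The K4me3 cover of the chromosome 5 block, which is the width of the Cxcl1 peak, differed otherwise between KE and KR than between EZ and WT. KE minus KR was -0.3303 kb and EZ minus WT was 0.415 kb, a difference of -0.7453 kb (exact permutation test over 400 regroupings within the pairs, p = 0.035, where the smallest possible is 0.005). Labels were regrouped within each pair, so each p here supposes no effect in either pair, not equal effects. A small p can thus come from an effect in a single pair. Adjusted over the 6 measures tested in this way the exact p was 0.21, which does not pass. WT replicate 2, the library with the fewest peaks, had no Cxcl1 peak. Without it the difference was -0.3963 kb (exact permutation test, p = 0.06).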

How the results depend on the processing

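None of the 18 tests was past its threshold in any setting that was run, so the settings bear on directions and sizes. Of 184 values recomputed with all mice, 10 changed direction, and of 156 with a mouse left out, 5 did. The causes were not tested. Of the values in the same unit, 24 of 166 and 26 of 156 kept their sign and moved by over 1.5 times. With equal numbers of widest peaks, KR minus WT in chromosome 5 K27me3 was 0.2883 in place of 8.931 kb and in chromosome 11 K27me3 13.4 in place of 40.08 kb, and KE minus KR in chromosome 11 K27me3 was 57.52 in place of 30.84 kb. Without block extension, KE minus KR in chromosome 5 K27me3 was -1.854 in place of -6.013 kb. For genes with K4me3 per mouse, EZ minus WT was 0.0 with equal numbers of widest peaks and with medians, KR minus WT 0.0 with medians, and KE minus KR -0.3333 with a 5 kb window, -1.0 with equal numbers of peaks and 0.001231 relative to the genome. For genes with K27me3 per mouse, EZ minus WT was -2.667 with the window from 100 kb upstream, and KE minus KR was -0.3333 with 1 kb and 5 kb windows and with at least 500 bp covered, -2.0 with the 100 kb window and 0.0 with medians. For chromosome 5 K27me3, EZ minus WT was -2.267 kb with blocks extended by 50 kb, -3.497 kb with equal numbers of peaks and -0.01028 relative to the genome. For chromosome 11 K4me3 over the whole span of the blocks, EZ minus WT was -3.362 kb and KR minus WT -2.146 kb. For chromosome 11 K27me3 over that span, EZ minus WT was 142.8 in place of 60.39 kb and KR minus WT 112.7 in place of 40.08 kb. KE minus KR was 69.62 in place of 30.84 kb there. Cxcl9 left the count of K27me3 genes in KR and not KE with equal numbers of peaks, which made it 0.

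With a mouse left out, genes with K4me3 ranged from 0.0 to 0.5 for EZ minus WT and for KR minus WT, and genes with K27me3 from 0.3333 to 4.833 for EZ minus WT, 1.667 to 6.167 for KR minus WT and -0.5 to 1.0 for KE minus KR. Chromosome 5 K27me3 ranged from -4.889 to 6.835 kb for EZ minus WT and 3.007 to 14.73 kb for KR minus WT and -7.618 to -3.394 kb for KE minus KR, chromosome 11 K27me3 from 39.69 to 81.27 kb and 24.18 to 60.96 kb for EZ and KR minus WT, chromosome 5 K4me3 from 0.066 to 0.5935 kb and 0.1633 to 0.6908 kb, in the same order, and chromosome 11 K4me3 from -0.0165 to 0.4895 kb for EZ minus WT and 0.1398 to 0.6458 kb for KR minus WT. Without WT replicate 1, genes with K27me3 were 0.3333 for EZ minus WT and 1.667 for KR minus WT, and chromosome 5 K27me3 was -4.889 and 3.007 kb. Without WT replicate 2 these were 4.833 and 6.167 genes, and 6.835 and 14.73 kb. The count of genes with K27me3 in all mice of one genotype and none of the other ranged from 0.0 to 1.0 for EZ and WT, 0.0 to 3.0 for KR and WT, 1.0 to 2.0 for KE and KR and 0.0 to 2.0 for KE and WT. Without WT replicate 2, KE minus KR and EZ minus WT in chromosome 5 K27me3 differed by -12.85 kb (exact permutation test, p = 0.025, adjusted over 6 measures 0.15, which does not pass), in place of -7.048 kb (p = 0.355, exact). Both p suppose no effect in either pair, not equal effects.

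Outside K4me3 in KE and KR, the correlations of same-numbered mice did not all exceed 0.1 in any contrast, so the mice were not taken as paired. They ran from -0.67 to 0.48 over all 18. With the replicate block, the chromosome 11 K27me3 difference of KE and KR stayed at 30.84 kb (exact sign-flip test, p = 0.25, the smallest 3 pairs allow), and no call changed. Peaks have no heights here, and a missing peak may be weak rather than absent.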
